A study of Mus musculus with 200 samples.

Results

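Xdh, the mouse gene for xanthine dehydrogenase, was followed through 200 mice that had received closed head injury (CHI) or sham surgery. It is 1 of the 56941 genes in the deposited tables and was found there by its symbol. It was selected because of its measured level 9 h after CHI in C57BL/6J mice, so every contrast of Xdh that contains those mice is given as a description, without a p-value. The mice belonged to 4 strains. There were 61 C57BL/6J mice (43 CHI, 18 sham, 4.4 to 6.8 months old), 55 mice labelled IL-1R1 gKO (37 CHI, 18 sham, 3.3 to 7.4 months), 50 labelled IL-1R1 eRestore (33 CHI, 17 sham, 4.5 to 7.4 months) and 34 labelled IL-1R1 nRestore (20 CHI, 14 sham, 3.3 to 7.67 months). IL-1R1 is the receptor through which interleukin-1 signals, and the labels name the strains without giving the alleles, promoters or target cells behind gKO, eRestore and nRestore. All mice were anaesthetized for surgery, and a single hemisphere per mouse was taken 9 h (68 mice), 24 h (65 mice) or 72 h (67 mice) later.

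Xanthine dehydrogenase carries out the last steps of purine breakdown in which hypoxanthine is oxidized to xanthine and xanthine to urate. The enzyme needs a molybdenum cofactor, iron-sulfur clusters and FAD. In its dehydrogenase form it passes electrons to NAD+, and in its oxidase form it passes them to oxygen, which gives superoxide and hydrogen peroxide. In mice urate is oxidized further by urate oxidase, encoded by Uox, and in brain tissue the enzyme is best known from the endothelium of small vessels.

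The gene (ENSMUSG00000024066) lies on the minus strand of chromosome 17, at chr17:74190203-74257399 in GRCm39. The annotation lists 30 transcripts, of which 10 code for protein and are 1768 to 5326 bases long. A processed pseudogene, Gm18068, sits in an intron with a mean of 0.045 counts per mouse. A lncRNA on the other strand, Gm64661, overlaps an exon of Xdh and has no row in the count table, and whether reads were assigned by strand is not given in the sources used here. Xdh had a mean of 233.18 counts per mouse, with 55 to 1183 in single mice, and counting error was not separated from the spread between mice.

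Total estimated counts ranged from 14.9 to 57.4 M per mouse (median 20.3 M; M, mega-). Neuron and oligodendrocyte markers were abundant in every mouse at 9 h, as the label mouse brain states. The summed TPM of 10 neuron markers was 6712 to 11336, and that of 10 oligodendrocyte markers was 2749 to 7321. Il1r1 itself had a mean of 5.77 ± 2.01 normalized CPM (SD, n = 61) in C57BL/6J mice and 10.2 ± 2.48 (n = 55) in mice labelled gKO. Gene-level counts do not show which part of the transcript was read, so Il1r1 does not check that label. In 2 of the 200 mice the genes Xist and Ddx3y went against the labelled sex. The labels assign each mouse to 1 of 8 experiments. The 3 experiments of the 9 h mice held no later mice, so a difference between 9 h and later cannot be told apart from one between experiments.

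At 9 h Xdh was higher after CHI in C57BL/6J mice and close to the sham level in each of the other strains. Levels are given as normalized CPM, counts divided by the library size after TMM scaling and put on the same scale in every mouse. In C57BL/6J sham mice the lowest level was 7.51, the median 9.11 and the highest 12.1 (mean 9.32 ± 1.58, SD, n = 6). In C57BL/6J CHI mice the lowest was 18.8, the median 25.8 and the highest 36.7 (mean 26.4 ± 5.99, SD, n = 15). The groups did not overlap. All 15 CHI mice lay above all 6 sham mice, as they did for 0.955% of the 16967 genes tested, and the lowest CHI mouse was 1.55 times the highest sham mouse. The ratio of the means was 2.83. In the model with sex and age the difference was 1.45 on the log2 scale (SE 0.12). In this comparison 14.1% of the genes tested had an adjusted p under 0.05, and since Xdh was chosen by this contrast nothing is read from that share.

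**Figure D1:**
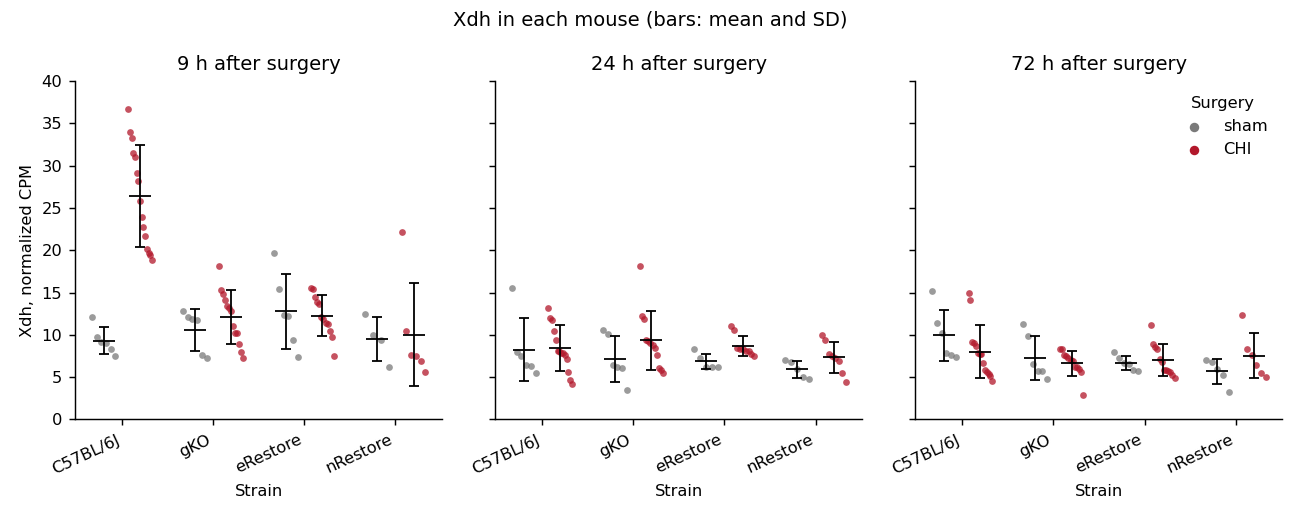
Normalized CPM of Xdh (y axis) in each of the 200 mice, by strain (x axis) at 9, 24 and 72 h after surgery, with sham mice in grey and CHI mice in red; horizontal and vertical lines give the group mean and SD. The 15 C57BL/6J CHI mice at 9 h lie between 18.8 and 36.7, and 2 of all other mice lie above 18.8.

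Among all other mice the levels were low. Of the mice outside the C57BL/6J CHI group at 9 h, 2 lay above its lowest member, a sham eRestore mouse at 19.7 and a CHI nRestore mouse at 22.1, both at 9 h. The 22 sham mice at 9 h had levels of 6.22 to 19.7 (median 9.90), and the 31 CHI mice of the IL-1R1 strains at 9 h had levels of 5.67 to 22.1 (median 11.4). The 132 mice at 24 and 72 h ranged from 2.92 to 18.1 (median 7.35). In the order of the 24 group means, C57BL/6J CHI at 9 h came first, followed by the eRestore sham group at 9 h with 12.8, and the lowest was the nRestore sham group at 72 h with 5.68. After the first place, neighbours in this order overlapped in their values.

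The C57BL/6J mice at 9 h came from 2 experiments, and both showed the difference. In experiment eIL-1-76 the 10 CHI mice had 18.8 to 29.2 and the 4 sham mice 12.1, 9.07, 8.27 and 7.51. In experiment eIL-1-80 the 5 CHI mice had 36.7, 34.0, 33.3, 31.5 and 31.1 and the 2 sham mice 9.78 and 9.15. The CHI mice of the experiments did not overlap with each other, while their sham means of 9.24 and 9.46 were close. The log2 difference was 1.32 within eIL-1-76 and 1.81 within eIL-1-80. The CHI mice of eIL-1-76 were 4.4 to 4.43 months old with a median depth of 33.3 M counts, and those of eIL-1-80 were 4.8 months old with a median of 20.3 M; the part of age and depth in the gap was not tested. Female C57BL/6J CHI mice had 24.1 ± 5.20 (SD, n = 7) and males 28.5 ± 6.19 (n = 8).

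**Figure D2:**
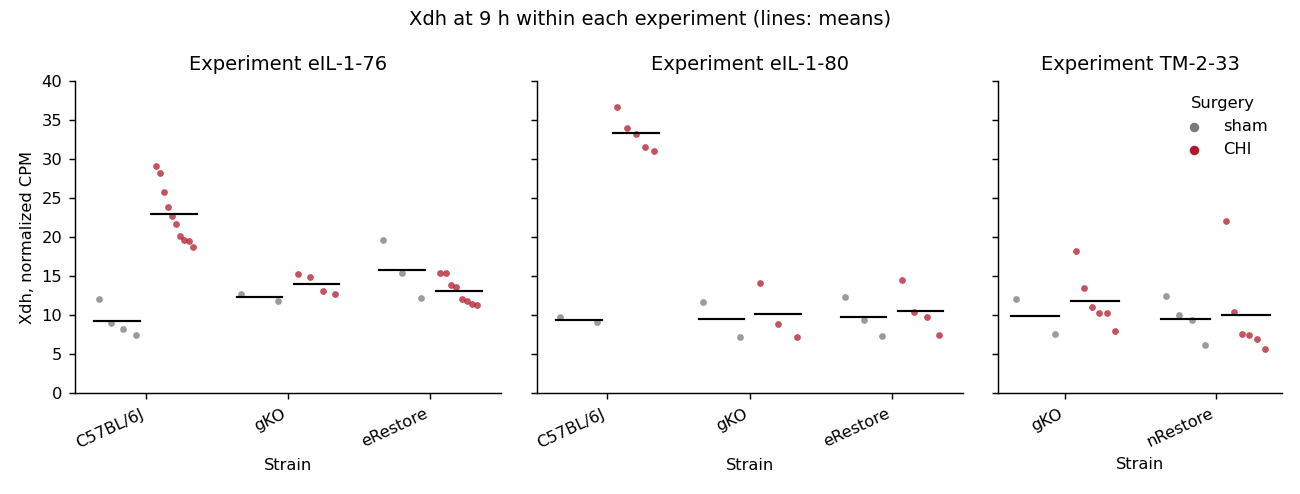
Normalized CPM of Xdh (y axis) at 9 h by strain (x axis) within each of the 3 experiments, with sham mice in grey, CHI mice in red and lines at the means. C57BL/6J CHI mice lie at 18.8 to 29.2 in eIL-1-76 and at 31.1 to 36.7 in eIL-1-80, in both above the other mice of that experiment apart from a sham eRestore mouse at 19.7 in eIL-1-76.

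The gKO, eRestore and nRestore mice were not used to choose Xdh, and there the CHI and sham groups overlapped. Mice labelled gKO had 7.22 to 12.8 after sham surgery (median 11.8, mean 10.6 ± 2.46, SD, n = 6) and 7.26 to 18.2 after CHI (median 12.8, mean 12.1 ± 3.18, n = 13). Of the 13 CHI mice, 7 lay above all sham mice. The log2 difference was 0.20 (SE 0.18, adjusted p = 0.755, edgeR quasi-likelihood test with Benjamini–Hochberg adjustment), in a comparison in which 0.199% of genes passed an adjusted p of 0.05. Leaving out 1 sham mouse at a time gave 0.11 to 0.28.

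Mice labelled eRestore had 7.37 to 19.7 after sham surgery (median 12.3, mean 12.8 ± 4.38, SD, n = 6) and 7.49 to 15.5 after CHI (median 12.0, mean 12.3 ± 2.42, n = 12). All 12 CHI mice lay within the sham range. The log2 difference was -0.03 (SE 0.15, adjusted p = 0.920), while 7.34% of genes passed in the same mice. In mice labelled nRestore, all from experiment TM-2-33, the 4 sham mice had 12.5, 10.0, 9.40 and 6.22, and CHI mice had a lowest level of 5.67, a median of 7.54 and a highest of 22.1 (n = 6). The means were 9.52 ± 2.56 (sham, SD, n = 4) and 10.0 ± 6.13 (CHI), and the sham median was 9.71. Without adjustment for sex and age the mean log2 levels differed by -0.0448. In the model the difference was 0.31 (SE 0.39, adjusted p = 0.809, 0.608% of genes), and it was -0.11 (adjusted p = 0.873) without the CHI mouse at 22.1. Leaving out 1 sham mouse at a time gave 0.28 to 0.63, the latter without the mouse at 9.40.

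With the 3 IL-1R1 strains in a single model at 9 h (31 CHI and 16 sham mice), the Xdh difference was 0.06 on the log2 scale (SE 0.13, adjusted p = 0.815). In this comparison 12.3% of genes passed. Xdh was therefore not among the genes called in the pooled IL-1R1 strains at a time when many genes were. A p that misses the threshold does not show equal levels, and the SE of 0.13 gives the precision of this value.

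**Figure D3:**
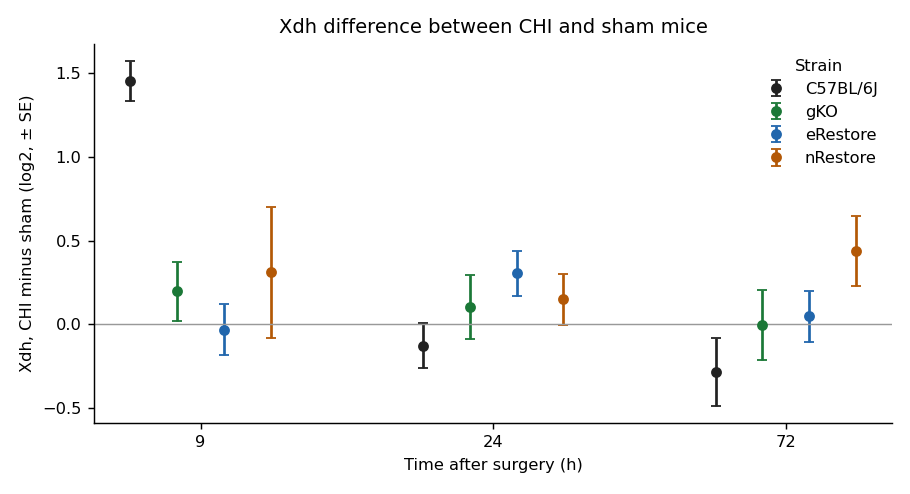
Difference of Xdh between CHI and sham mice on the log2 scale (y axis) at 9, 24 and 72 h (x axis) in each strain; points are the model's estimates and bars their SE. C57BL/6J at 9 h stands at 1.45, and the other 11 estimates lie between -0.28 and 0.44.

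The strain by surgery difference sets the CHI effect of each strain against that of C57BL/6J mice in a model of all 68 mice at 9 h. It was -1.30 (SE 0.28) for gKO, -1.58 (SE 0.28) for eRestore and -1.44 (SE 0.33) for nRestore mice on the log2 scale. These contain the value that chose Xdh and carry no p. The nRestore mice at 9 h all came from TM-2-33, which held no C57BL/6J mice, and were 3.3 to 4 months old against 4.4 to 4.8 months, so for this pair strain cannot be told apart from experiment and age. The share of the 18741 genes that passed was 0% for gKO (edgeR; 1199 genes at an unadjusted p under 0.05, and 17 by DESeq2), 0.0107% for eRestore and 0.00534% for nRestore, and nothing is read from these shares. In experiments eIL-1-76 and eIL-1-80, which held C57BL/6J, gKO and eRestore mice side by side, the CHI means at 9 h were 23.0, 14.0 and 13.1 in the former and 33.3, 10.1 and 10.5 in the latter. The corresponding sham means were 9.24, 12.3 and 15.8, and 9.46, 9.48 and 9.73.

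Among the 3 IL-1R1 strains the CHI effects on Xdh at 9 h were not distinguished. The joint test of their strain by surgery terms gave an adjusted p of 0.976. In that test 0% of genes passed with edgeR (805 genes at an unadjusted p under 0.05; DESeq2 was not run for it). The pairwise differences were -0.28 (SE 0.28) for eRestore minus gKO, -0.14 (SE 0.33) for nRestore minus gKO and 0.14 (SE 0.33) for nRestore minus eRestore.

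At 24 h the CHI and sham groups overlapped in all 4 strains. C57BL/6J sham mice had 5.52 to 15.6 (median 6.97, mean 8.23 ± 3.71, SD, n = 6) and CHI mice 4.22 to 13.2 (median 8.01, mean 8.44 ± 2.69, n = 14). The log2 difference was -0.13 (SE 0.14, adjusted p = 0.854, 0.404% of genes). The sham mouse at 15.6 stood apart from the other 5, and without it the difference was 0.0148. It was the only C57BL/6J sham mouse of experiment NiL-1-21 at 24 h, and the 5 CHI mice there were also high. Their mean log2 level was 3.45, beside 2.88 for CHI mice in eIL-1-38 and 2.38 in NiL-1-24. These CHI mice were all female in NiL-1-21, of both sexes in eIL-1-38 and all male in NiL-1-24. Female C57BL/6J CHI mice at 24 h had 10.1 ± 2.13 normalized CPM (SD, n = 8) and males 6.29 ± 1.67 (n = 6). The order of the experiments therefore cannot be told apart from sex. In gKO mice the means were 7.15 ± 2.70 after sham surgery (n = 6) and 9.34 ± 3.49 after CHI (n = 12), with a difference of 0.10 (SE 0.19, adjusted p = 0.933, 0.0059% of genes) that ranged from 0.0149 to 0.18 when 1 sham mouse at a time was left out.

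In eRestore mice the sham levels at 24 h were 6.15 to 8.30 (n = 5) and the CHI levels 7.50 to 11.0 (n = 9). The difference was 0.30 (SE 0.14, adjusted p = 0.518), where 0% of genes passed with edgeR, 1494 had an unadjusted p under 0.05 and DESeq2 called 55. In nRestore mice they were 4.77 to 7.08 (n = 5) and 4.48 to 9.99 (n = 8). The difference was 0.15 (SE 0.15, adjusted p = 0.955), where 0% passed with edgeR, 740 had an unadjusted p under 0.05 and DESeq2 called 3. Over the 3 IL-1R1 strains together it was 0.22 (SE 0.12, adjusted p = 0.452, 0.231% of genes). Of the CHI mice of these strains at 24 h, 5 gKO, 4 eRestore and 4 nRestore mice came from experiment NiL-1-21. That experiment held no sham mouse of these strains, and its 19 mice at 24 h were all female. For those CHI mice surgery cannot be told apart from experiment.

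At 72 h no difference in Xdh passed either. C57BL/6J mice had 7.39 to 15.2 after sham surgery (median 9.04, mean 9.95 ± 3.03, SD, n = 6) and 4.49 to 15.0 after CHI (median 7.75, mean 8.03 ± 3.14, n = 14), and every sham mouse lay above 6 of the 14 CHI mice. The difference was -0.28 (SE 0.20, adjusted p = 0.908), where 0% of genes passed with edgeR, 869 had an unadjusted p under 0.05 and DESeq2 called 41. For gKO mice the means were 7.31 ± 2.61 (sham, n = 6) and 6.67 ± 1.47 (CHI, n = 12), with a log2 difference of -0.0033 (SE 0.21, adjusted p = 1.00), where 0% passed with edgeR, 376 had an unadjusted p under 0.05 and DESeq2 called 0.

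For eRestore mice at 72 h the means were 6.70 ± 0.850 (sham, n = 6) and 7.01 ± 1.89 (CHI, n = 12), with a difference of 0.05 (SE 0.15, adjusted p = 0.991, 0.00605% of genes). For nRestore mice, all labelled male at 72 h, they were 5.68 ± 1.51 (sham, n = 5) and 7.55 ± 2.67 (CHI, n = 6), with a difference of 0.44 (SE 0.21, adjusted p = 0.785, 0.0121% of genes). The highest nRestore CHI mouse, at 12.4, was one of the mice whose sex genes went against the label, and without it the difference was 0.25 and again did not pass. Over the 3 IL-1R1 strains it was 0.07 (SE 0.12, adjusted p = 0.939, 0.295% of genes).

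The joint tests of a strain by surgery difference over all 4 strains gave adjusted p-values of 1.00 at 24 h (0.00541% of genes passed) and 0.997 at 72 h (0.00543%). The largest of these pairwise differences was nRestore minus C57BL/6J at 72 h, 0.71 (SE 0.32, adjusted p = 0.781, 0.00543% of genes). The effect in males minus that in females was 0.14 (SE 0.22) at 9 h, a value that contains the mice that chose Xdh and carries no p. It was 0.04 (SE 0.20, adjusted p = 0.993) at 24 h and -0.20 (SE 0.23, adjusted p = 0.745) at 72 h, and neither passed. With edgeR 0% of genes passed at 9, 24 and 72 h. An unadjusted p under 0.05 was reached by 475, 940 and 1441 genes, and DESeq2 called 1, 0 and 0.

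The CHI effect on Xdh in C57BL/6J mice was larger at 9 h than at 24 h by 1.57 (SE 0.26) and than at 72 h by 1.90 (SE 0.26) on the log2 scale. Both contain the value that chose the gene. For these contrasts 5.05% and 6.92% of genes passed. In the other strains no change of the effect from 9 h to 24 h or 72 h passed. It was -0.05 and 0.41 in gKO mice (SE 0.30 each, adjusted p = 0.995 and 0.712, 0.349% and 0.0776% of genes). In eRestore mice it was -0.44 (SE 0.24) and -0.14 (SE 0.21), with adjusted p = 0.642 and 0.819 (0.195% and 0.551% of genes). In nRestore mice it was -0.01 and -0.37 (SE 0.39 each, adjusted p = 0.997 and 0.779, 0.114% and 0.18% of genes).

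Sham mice themselves differed between time points in the counts of Xdh. Over the 4 strains the sham mean was 10.6 ± 3.09 at 9 h (SD, n = 22), 7.10 ± 2.47 at 24 h (n = 22) and 7.48 ± 2.61 at 72 h (n = 23) in normalized CPM. The 9 h level was higher than that at 24 h by 0.55 on the log2 scale (SE 0.12, adjusted p = 8.2e-05) and than that at 72 h by 0.47 (SE 0.12, adjusted p = 0.00071). Among all genes 44.7% and 44% passed the same contrasts, so Xdh shared this behaviour with a large part of the table. Surgery was done in the morning, so the time of day at collection also moved with the time point and cannot be told apart from it.

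This difference between sham groups was lost on a scale that accounts for transcript length. In TPM the sham means were 4.64 ± 1.18 at 9 h, 4.27 ± 1.78 at 24 h and 4.82 ± 2.48 at 72 h. With gene-length offsets in DESeq2, chosen after the data were seen, the differences were 0.24 (adjusted p = 0.244) and 0.05 (adjusted p = 0.831). The length of Xdh as quantified, its count divided by its TPM relative to other mice, varied from 0.405 to 1.37 between mice. Its SD of 0.37 on the log2 scale compares with a median of 0.07 over 11189 genes with at least 50 counts in every mouse, and 0.760% of those genes varied more. The mean relative length was 1.09 in sham and 1.09 in CHI mice at 9 h, 0.918 and 1.06 at 24 h, and 0.898 and 1.03 at 72 h. The strains differed at 9 h. Sham and CHI means were 0.922 and 1.19 in nRestore mice (n = 4 and 6). They were 1.11 and 1.08 in C57BL/6J, 1.13 and 1.09 in gKO, and 1.12 and 1.05 in eRestore mice. The proportions of the 30 transcripts are not in the gene-level tables. At 9 h in C57BL/6J mice the CHI minus sham difference was 1.53 (SE 0.13) with these offsets.

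**Figure D4:**
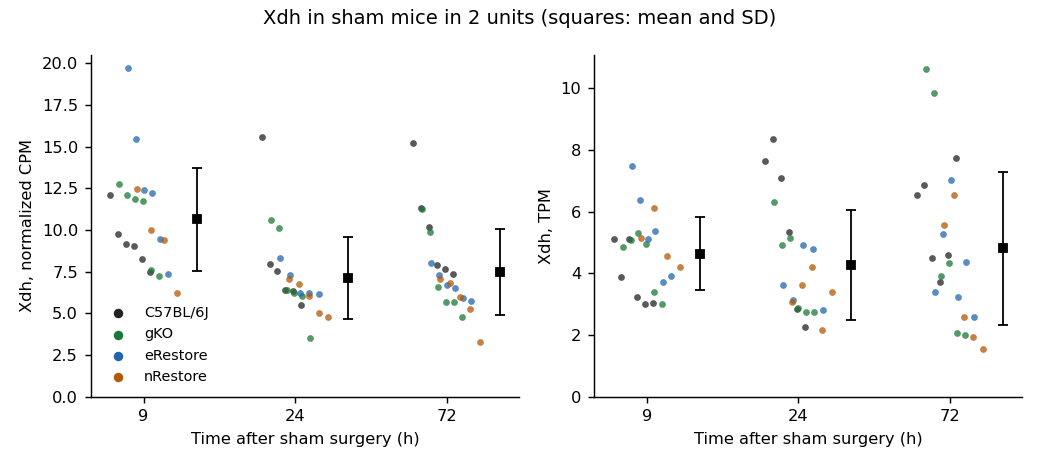
Xdh in the 67 sham mice at 9, 24 and 72 h (x axis), in normalized CPM (left y axis) and in TPM (right y axis), coloured by strain, with squares and bars for mean and SD. Mean CPM is 10.6, 7.10 and 7.48, and mean TPM is 4.64, 4.27 and 4.82.

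Between strains the sham level of Xdh was not distinguished by the main test. Mean normalized CPM over the time points was 9.17 ± 2.83 in C57BL/6J (SD, n = 18), 8.34 ± 2.92 in gKO (n = 18), 8.89 ± 3.89 in eRestore (n = 17) and 6.87 ± 2.36 in nRestore mice (n = 14). Relative to C57BL/6J the log2 differences were -0.13 for gKO (SE 0.13, adjusted p = 0.650, 4.43% of genes) and -0.09 for eRestore (SE 0.13, adjusted p = 0.809, 4.29% of genes). For nRestore the difference was -0.37 (SE 0.14, adjusted p = 0.0541, 14.8% of genes). DESeq2 gave an adjusted p of 0.0392 for the same contrast, and 0.198 with gene-length offsets. Female sham mice had 9.41 ± 2.93 (n = 31) and males 7.52 ± 3.06 (n = 36). That difference, chosen after its values were seen, was -0.26 for male minus female (SE 0.098, adjusted p = 0.608, 0.142% of genes).

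The steps of purine breakdown before Xdh were represented by adenosine deaminase (Ada), which makes inosine from adenosine, purine nucleoside phosphorylase (Pnp), which releases hypoxanthine and guanine, and guanine deaminase (Gda), which makes xanthine from guanine. On the TPM scale, which allows genes to be compared, Gda was far above the others in C57BL/6J sham mice at 9 h, with 148.2 ± 19.5. Pnp had 12.3 ± 2.69, Xdh 3.90 ± 0.995, Ada 0.601 ± 0.299 and Uox 0.531 ± 0.437 (n = 6). In the C57BL/6J CHI mice the levels were 9.43 ± 3.03 for Pnp, 11.8 ± 4.51 for Xdh, 1.69 ± 0.501 for Ada and 0.712 ± 0.427 for Uox (n = 15). The mean of Xdh lay below that of Pnp in the sham mice, and in the CHI mice the spreads of these genes overlapped.

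Of 22 other genes listed for purine degradation, 17 passed the filter on low counts in C57BL/6J mice at 9 h. Of these, 4 rose, none fell and 13 did not pass, where 14.1% of all genes tested passed in either direction, with a median log2 difference of 0.03 beside -0.01 over all genes. Ada rose by 1.49 (SE 0.24, adjusted p = 0.00016), from 0.485 ± 0.214 normalized CPM in sham to 1.36 ± 0.415 in CHI mice. The sham level was low. Ada could have met the filter on low counts through the CHI mice alone, which was not checked. The other 3 were small changes. The AMP deaminase gene Ampd3 rose by 0.24 (adjusted p = 0.0448), and the nucleotidase genes Nt5m and Nt5c2 rose by 0.23 (adjusted p = 0.0398) and 0.17 (adjusted p = 0.0204). Pnp had -0.33 (SE 0.16, adjusted p = 0.168), Gda -0.09 (SE 0.06, adjusted p = 0.393) and Uox 0.30 (SE 0.38, adjusted p = 0.666).

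In the 3 IL-1R1 strains together at 9 h, 18 genes of this list were tested and 1 rose, Nt5c2 by 0.11 (SE 0.03, adjusted p = 0.0209), while 17 did not pass and 12.3% of all genes did. DESeq2 called 3 of the 18. The median was -0.00158 beside -0.00196 over all genes. Ada had 0.28 (SE 0.29, adjusted p = 0.593), Pnp -0.0035 (SE 0.08, adjusted p = 0.986) and Gda 0.10 (SE 0.07, adjusted p = 0.359). Within eRestore mice alone Gda rose by 0.27 (SE 0.07, adjusted p = 0.0214, 7.34% of genes), beside 0.02 (SE 0.11, adjusted p = 0.966) in gKO and -0.06 (SE 0.08, adjusted p = 0.816) in nRestore mice, and the difference among these strains was not tested for Gda. For Ada the strain by surgery differences from C57BL/6J mice were -0.84 (SE 0.59) for gKO, -1.43 (SE 0.59) for eRestore and -1.59 (SE 0.67) for nRestore mice.

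**Figure D5:**
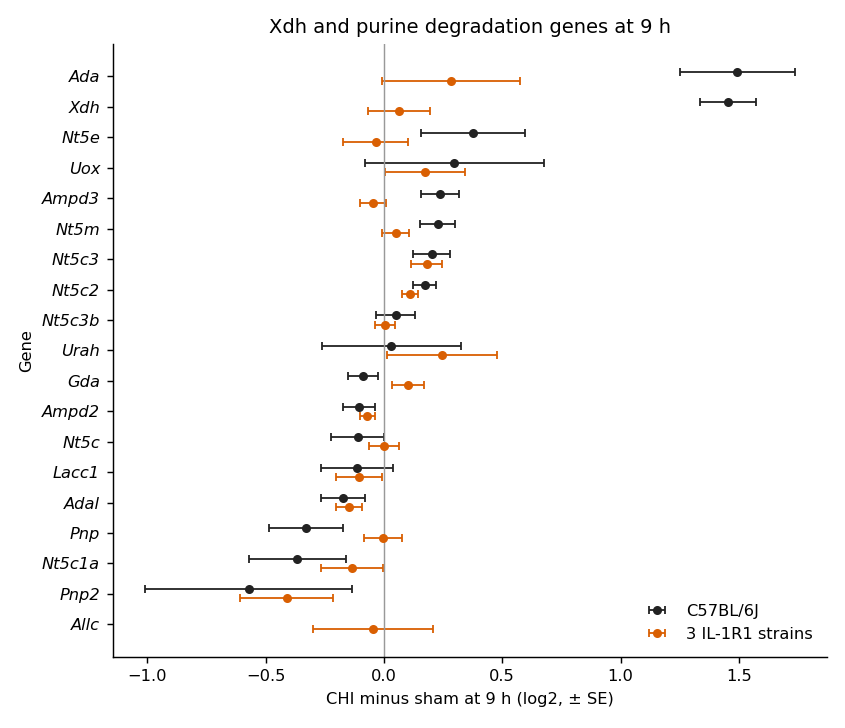
Difference between CHI and sham mice at 9 h on the log2 scale (x axis) for Xdh and the tested genes of purine degradation (y axis), in C57BL/6J mice (black) and in the 3 IL-1R1 strains together (orange); points are estimates and bars their SE. Ada (1.49, from a low sham level) and Xdh (1.45) have the largest values in C57BL/6J mice, and 0.28 and 0.06 in the IL-1R1 strains.

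Purine salvage returns the bases to nucleotides and so competes with Xdh for its substrate. Of 11 listed genes, 8 were tested in C57BL/6J mice at 9 h. The nucleobase transporter gene Slc43a3 rose by 1.23 (SE 0.41, adjusted p = 0.0485) and the nucleoside transporter gene Slc29a2 fell by 0.32 (SE 0.11, adjusted p = 0.0461), while 6 did not pass (14.1% of all genes passed). Hprt, which recycles hypoxanthine and guanine, had 0.02 (SE 0.09, adjusted p = 0.925). In the IL-1R1 strains 0 of 9 passed with edgeR, beside 12.3% of all genes, 2 had an unadjusted p under 0.05 and DESeq2 called 0, and Hprt had 0.11 (SE 0.07, adjusted p = 0.303). Slc43a3 had 0.25 (SE 0.29, adjusted p = 0.655) in these strains together. By strain it had 0.17 (SE 0.43) in gKO, -0.50 (SE 0.47) in eRestore and 1.48 (SE 0.48, adjusted p = 0.191) in nRestore mice.

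Xdh shares its molybdenum cofactor with the aldehyde oxidases and sulfite oxidase. Of 12 listed genes of cofactor synthesis and molybdoenzymes, 10 were tested in each comparison. In C57BL/6J mice at 9 h the sulfite oxidase gene Suox rose by 0.40 (SE 0.09, adjusted p = 0.00467) and 9 did not pass, a share near the 14.1% of all genes. The cofactor sulfurase gene Mocos, whose product activates Xdh, had 0.27 (SE 0.27, adjusted p = 0.569), and Aox1, the closest relative of Xdh in the list, had -0.11 (SE 0.13, adjusted p = 0.627). In the IL-1R1 strains Gphn, needed for cofactor synthesis, rose by 0.12 (SE 0.04, adjusted p = 0.0162) and the aldehyde oxidase gene Aox3 fell by 0.86 (SE 0.22, adjusted p = 0.00528), 2 of 10 beside 12.3% of all genes. There Mocos had 0.00031 (SE 0.15) and Aox1 -0.12 (SE 0.13).

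Transporters that carry urate, the product of Xdh, included 13 listed genes. In C57BL/6J mice 6 were tested, of which Abcc4, an efflux pump, rose by 0.50 (SE 0.10, adjusted p = 0.00143) and Slc22a8, an organic anion transporter, fell by 1.00 (SE 0.14, adjusted p = 3e-05), 2 of 6 beside 14.1% of all genes. Slc22a6 had -0.79 (SE 0.49, adjusted p = 0.315) in these mice. Among 8 tested in the IL-1R1 strains, Slc22a8 fell by 0.91 (SE 0.12, adjusted p = 1.1e-06) and Slc22a6, of the same family, fell by 1.95 (SE 0.32, adjusted p = 3.6e-05), while Abcc4 had 0.08 (SE 0.08, adjusted p = 0.557). These were 2 of 8 beside 12.3% of all genes. By strain Slc22a6 had -1.82 in gKO, -2.13 in eRestore and -1.54 in nRestore mice, and Slc22a8 had -0.85, -1.09 and -0.46. Of these values only those of eRestore mice passed (adjusted p = 0.0215 and 0.00145). In the 3 IL-1R1 strains together all 10 choroid plexus markers had values below 0, from -1.52 to -0.37 with a median of -1.21, and none passed with edgeR. The strains differed in direction. The tested markers had -4.78 to -1.47 in eRestore, -1.63 to 0.26 in gKO and 0.32 to 1.59 in nRestore mice, and none passed there either. In C57BL/6J mice their values were -3.28 to -1.46. The part of choroid plexus tissue in the transporter values was not tested.

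Genes that remove superoxide and hydrogen peroxide, the products of the oxidase form, were listed as 18 and all were tested. In C57BL/6J mice at 9 h 0 passed with edgeR, beside 14.1% of all genes, 1 had an unadjusted p under 0.05 and DESeq2 called 0. Txnrd1, thioredoxin reductase, rose in the IL-1R1 strains by 0.10 (SE 0.03, adjusted p = 0.0164) and 17 did not pass, beside 12.3% of all genes that did. Over these 5 lists together, 0 of 58 genes at 24 h and 0 of 59 at 72 h passed in C57BL/6J mice with edgeR. Unadjusted p under 0.05 was reached by 6 and 4 of them, and DESeq2 called 0 at either time. For the IL-1R1 strains 0 of 60 passed at 24 h and 0 of 60 at 72 h, 4 and 6 had an unadjusted p under 0.05, and DESeq2 called 0.

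Because a hemisphere holds many cell types, more cells of a type and more RNA per cell cannot be told apart in these data. Markers of 9 cell types were followed beside Xdh at 9 h, and none of the marker genes was at 0 in all mice. Among 16 endothelial markers in C57BL/6J mice, 4 rose and 4 fell, where 14.1% of all genes passed in either direction. Their summed TPM was 328 to 448 in sham (median 403) and 380 to 510 in CHI mice (median 476), ranges that overlapped. The glucose transporter gene Slc2a1, an endothelial marker of the list, rose by 0.53 and Ly6c1 by 0.61 (SE 0.11), while Itm2a fell by 0.57 (SE 0.10) and the receptor gene Tek by 0.58 (SE 0.13). The endothelial genes Cldn5 and Cdh5 had 0.14 (SE 0.12) and 0.06 (SE 0.12). In the IL-1R1 strains 2 of the 16 rose and 3 fell, where 12.3% of all genes passed.

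Of the other lists in C57BL/6J mice at 9 h, 2 of 10 mural, 3 of 9 fibroblast and meningeal, and 4 of 11 astrocyte markers rose, with none lower. For these lists too the shares of all genes passing were 14.1% in C57BL/6J mice and 12.3% in the IL-1R1 strains. Among 10 microglial markers 1 rose and 5 fell, 2 of 10 oligodendrocyte markers fell, and 1 of 10 neuronal markers fell. None of 10 choroid plexus markers and none of the 4 blood markers tested passed, and the choroid plexus markers had a median of -1.73, with summed TPM of 20.4 to 6082 in sham and 7.00 to 2560 in CHI mice. In the IL-1R1 strains at 9 h the counts of higher and lower members were 1 and 2 for mural cells, 1 and 3 for fibroblasts, 4 and 1 for astrocytes, 1 and 4 for microglia, 0 and 2 for oligodendrocytes, and 0 and 0 for neurons, choroid plexus and the 5 blood markers tested. The part of cell composition in the Xdh difference was not tested.

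The genes whose levels followed Xdh most closely were found by Pearson correlation of log2 normalized CPM, as a description without a test. Over the 24 group means, which include the C57BL/6J CHI group at 9 h, the closest of 20110 genes were Endod1 (r = 0.928, Spearman's rho 0.906), Slc2a1 (r = 0.926, rho 0.910), Adipor2 (r = 0.923, rho 0.935), Slc35e4 (r = 0.919, rho 0.827) and Mafk (r = 0.919, rho 0.849). The 99th percentile of all genes was 0.836. Without the C57BL/6J CHI group at 9 h the 5 genes had r of 0.817 to 0.915. The group means left still span 9 h and later mice. In sham mice the 5 genes, like Xdh, were higher at 9 h than at 24 h, by 0.19 to 0.50 on the log2 scale. That contrast was passed by 44.7% of all genes, and the part of time point and experiment in these correlations was not tested.

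Over the residuals of the 200 mice from their group means with sex removed, the closest were Galnt15 (r = 0.621, rho 0.593), Adipor2 (r = 0.596, rho 0.548), Slc2a1 (r = 0.594, rho 0.536), Plin4 (r = 0.584, rho 0.520) and Hif3a (r = 0.582, rho 0.534). The 99th percentile was 0.266. Slc2a1 encodes the glucose transporter of the blood-brain barrier, Adipor2 a receptor for adiponectin, Plin4 a lipid droplet protein and Hif3a a member of the hypoxia-inducible factor family. Adipor2 and Slc2a1 stood in both lists. Values in a mouse come from the same library, so they share its depth and cell composition. The residuals also keep differences between experiments within a group, and the part of these was not tested. On the TPM scale 1 of the 5 genes over group means and 3 of the 5 over residuals remained among the closest 5.

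In C57BL/6J mice at 9 h the CHI minus sham difference on the log2 scale was 2.82 for Plin4, 1.69 for Galnt15, 1.22 for Hif3a, 0.67 for Mafk, 0.53 for Slc2a1, 0.49 for Adipor2, 0.47 for Slc35e4 and 0.45 for Endod1, beside 1.45 for Xdh. In eRestore mice it was 1.61 for Plin4, 0.88 for Galnt15 and 0.54 for Hif3a, and it was -0.0050 to 0.20 for the other 5, beside -0.03 for Xdh. For gKO mice Plin4, Galnt15 and Hif3a had 1.51, 0.97 and 0.36, and the other 5 had 0.0137 to 0.20, beside 0.20 for Xdh. For nRestore mice the former had 1.80, 1.10 and 0.52, and the other 5 had 0.23 to 0.31, beside 0.31 for Xdh. These genes were picked for their likeness to Xdh, so their differences carry no test here.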

How the data were processed

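The authors sequenced poly(A)-selected RNA of a single hemisphere per mouse, perfused with PBS. Per the labels, reads were checked with FastQC, aligned to GRCm39 (mm39) with STAR and quantified with Salmon; the annotation release and strandedness are not given in the sources used here. The authors deposited estimated counts per gene, not normalized and not all whole, and TPM values, scaled by Salmon for transcript length and library size. Every column was matched to a labelled mouse, and the labels gave its strain, sex, age, surgery, time point and experiment. Mice were the replicates.

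After rounding, the counts were normalized by TMM and tested with the robust quasi-likelihood F test of edgeR 4.0.16 under R 4.3.3. The filter asked for 10 counts or more in a number of mice equal to the smallest group compared. Adjusted p is after Benjamini–Hochberg correction across all genes tested, with a threshold of 0.05. CHI was compared with sham separately for each strain and time point, given sex and age, and strain or sex by surgery differences in a model of all mice of a time point. Sham mice were compared with sex as a covariate. SEs were derived from the F statistics. Alternatives were RLE factors, DESeq2 1.42.0 with its size factors or with gene-length offsets (the study's own test), no filter or a stricter filter, no covariates, experiment in place of age, single experiments, leaving out each sham mouse, and exact permutation tests on log2(TPM + 0.1). The fits were tested on simulated data.

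Coordinates and transcripts are from the GENCODE annotation of GRCm39. Xdh and the gene lists were chosen with earlier results of these data known. Named genes were Xdh, Il1r1, direct neighbours in the pathway, up to 3 members of each pathway list with the largest differences past the threshold in the IL-1R1 strains, and the 5 genes most like Xdh over group means and over residuals. Members past the threshold in C57BL/6J mice at 9 h, Uox, Gda in eRestore mice and single endothelial markers were added after their values were seen. Reads carry no molecular identifiers, so counting error is a lower limit on the error.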

Additional observations from a re-analysis of the deposited data

Results flagged for a closer look

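Xdh had a single high mouse in 2 of the 16 groups of 4 to 10 mice that could be tested by Dixon's criterion at the 95% level, which chance alone meets in about 5% of groups. In nRestore mice 9 h after CHI the highest mouse had 22.1 normalized CPM, and the next had 10.4 (n = 6). Without it the CHI minus sham difference in that strain went from 0.31 to -0.11 on the log2 scale, and the difference over the 3 IL-1R1 strains went from 0.06 to -0.0164. In C57BL/6J sham mice at 24 h the highest mouse had 15.6, and the next had 7.99 (n = 6). Without it the C57BL/6J difference at 24 h went from -0.13 to 0.0148. It was the only C57BL/6J sham mouse of experiment NiL-1-21 at 24 h, so without it the 5 CHI mice there had no sham mouse of their experiment.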

How the results depend on the processing

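The difference of Xdh between CHI and sham C57BL/6J mice at 9 h, a description without a test, stayed between 1.32 and 1.81 over 16 alternatives (1.39 to 1.58 without a sham mouse), with 1.81 in experiment eIL-1-80 alone. Over all 57 results, 460 of 495 alternatives were counted as the same, 26 as reversed in sign, 6 as moved, 1 passed newly and 2 lost the call. For tested differences, the same means the same direction and side of the threshold, and for joint tests the same side. Without a test it means a shift smaller than the SD between mice within groups. The sign was not checked for single experiments, so 0.118 in eIL-1-38 alone for C57BL/6J mice at 24 h is not among the 26. The reversals were of values that did not pass. No paired analysis was possible because replicate numbers were given in accession order only. Counting error was not separated from the spread between mice, and the cause of the changes listed here was not tested.

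Gene-length offsets gave the most changes. For sham mice, where these offsets were chosen after seeing the data, the differences of 9 h from 24 and 72 h became 0.238 and 0.0511 and no longer passed. The CHI minus sham difference became 0.0674, -0.0633 and -0.217 in eRestore mice at 9, 24 and 72 h, -0.142, -0.0881 and -0.107 in nRestore mice, and -0.0144 and -0.315 over the 3 IL-1R1 strains at 24 and 72 h. The strain by surgery differences became -1.88 for nRestore minus C57BL/6J and -0.35 for nRestore minus eRestore at 9 h, and -0.15 for gKO minus C57BL/6J at 72 h. Changes of the CHI effect became 2.20 (9 h minus 24 h) and -0.0818 (24 h minus 72 h) in C57BL/6J mice, 0.0467 (9 h minus 24 h) in gKO mice, and 0.13 and 0.28 (9 h minus 24 h and minus 72 h) in eRestore mice. The sex difference at 24 h became -0.0563.

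On the log2(TPM + 0.1) scale the difference was 0.10 and -0.17 in eRestore mice at 9 and 72 h and -0.46 in nRestore mice at 9 h, and 1 and 3 of the 5 genes most like Xdh were kept over group means and residuals. Without covariates the C57BL/6J difference at 24 h was 0.0262, and with RLE factors that of gKO mice at 72 h was 3.78e-05. The C57BL/6J difference ranged from -0.606 to 0.118 over 16 alternatives at 24 h and from -0.537 to -0.161 over 15 at 72 h. None of those that were tested passed. In TPM the C57BL/6J sham and CHI means were 5.59 ± 2.56 and 4.03 ± 1.48 at 24 h (SD, n = 6 and 14). At 72 h they were 5.66 ± 1.61 and 4.18 ± 2.25 (n = 6 and 14). Leaving out a sham mouse gave -0.195 to 0.0148 for C57BL/6J at 24 h, -0.11 to 0.11 for gKO at 72 h, -0.15 to 0.14 for eRestore at 9 h, 0.00848 to 0.11 for eRestore at 72 h and 0.28 to 0.63 for nRestore at 9 h. Without the highest nRestore CHI mouse at 9 h, a setting chosen after seeing the data, the difference was -0.11 in that strain and -0.0164 over the 3 strains. At 72 h experiment eIL-1-56 alone gave 0.37 in eRestore and 1.09 in nRestore mice, and nIL-1-60 alone gave -0.0294 in nRestore mice. The nRestore minus C57BL/6J sham difference was -0.37 and passed with DESeq2. Leaving out the mice whose sex genes went against their label, also chosen after seeing the data, changed no call.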
